A study of Homo sapiens with 4 samples.

Results

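DKK1 and a set of WNT pathway feedback genes were followed across 4 expression arrays. The set held 10 genes, taken by name from the whole table of 19090 named genes with all of their probes. They were the secreted WNT antagonists DKK1, DKK3 and DKK4, the intracellular antagonists AXIN2 and NKD1, the membrane proteins RNF43, ZNRF3 and LGR5, and the transcription factors TCF7 and LEF1. Of the 10 genes, 9 had a named probe, with 12 probes in all, and TCF7 was not analysed here because no probe was paired with it. The set was chosen by name with the differences of DKK1 from the control array known, so those differences are described here and support nothing by themselves.

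All 4 arrays came from cells that the labels call HepG2, a line derived from a human liver tumour, each transfected with 1 kind of small double-stranded RNA and measured once on a OneArray Plus chip. The control group received a duplex with no match in the human genome (NC). The other groups received a microRNA mimic (miR-214) or 1 of 2 interfering RNAs, siPVT1-1 and siPVT1-2, both directed at PVT1, a long noncoding RNA. Every group, NC included, received the same transfection reagent. With 1 array per group, no difference had a replicate check and none was tested. All differences from NC share the 1 NC array, and no probe was paired with PVT1, so the knockdown had no check here.

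WNT proteins bind Frizzled receptors and the co-receptors LRP5 and LRP6, and thereby stop the breakdown of beta-catenin, which then activates target genes together with TCF and LEF factors. Several of those target genes encode brakes on the same pathway, such as AXIN2, NKD1, RNF43, ZNRF3 and DKK1, so their level is widely read as a gauge of beta-catenin activity. In liver the pathway sets the gene program around the central vein, and the HepG2 line is known to carry a shortened, stable form of beta-catenin. The form of beta-catenin in the cells on these arrays was not measured here.

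The agent on the mimic array corresponds to MIR214, which gives 2 mature arms. The source of the mimic does not state which arm it carries, so both are shown, 5′ to 3′, because the seed differs between them. The capitals mark the seed, bases 2 to 8, and the sequences are those of RefSeq on GRCh38.p14, minus strand of chromosome 1, at chr1:172138816-172138837 for the 3p arm and chr1:172138857-172138878 for the 5p arm.
hsa-miR-214-3p: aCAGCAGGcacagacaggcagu
hsa-miR-214-5p: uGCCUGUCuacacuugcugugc

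Levels are log2 intensities after quantile normalization, which gives the arrays a common distribution, with a floor at 6. A gene was compared when its mean level over the 4 arrays exceeded 9.72, the median of all probes, and a gene with several probes was represented by the brightest. Of 10668 genes above this level, 2 at the floor on an array were left out, and the other 10666 were compared. DKK1, NKD1, ZNRF3 and LEF1 were among them, while DKK3, DKK4, AXIN2, RNF43 and LGR5 lay under the filter. A gene was called higher or lower when it differed at least 2-fold, a rule of size and not a test. The median deposited intensity of the 28264 probes lay between 784.1 and 926.9 on the arrays. Of 18 hepatocyte markers with a probe, 6 lay above the filter (APOA1, APOC3, SERPINA1, FOXA1, CEBPA and RBP4), while albumin and AFP did not, and the log2 of the summed signal of the list ran from 13.78 to 13.94. Of the marker lists for other cell types, 4 of 10 fibroblast and 3 of 8 endothelial genes lay above the filter. So did 2 of 7 blood and 2 of 6 other epithelial genes (KRT14 and KRT7). On the NC array the log2 sum was 16.04 for other epithelium, 12.45 for endothelium and 13.37 for blood, against 13.78 for the hepatocyte list. The other epithelial and fibroblast sums lay above the hepatocyte sum on every array. The identity of the cells rests on the labels and was not tested. The summed fibroblast signal was 17.08 on the NC array, 17.25 on the mimic array, 17.32 with siPVT1-1 and 17.44 with siPVT1-2, with COL3A1 and POSTN at the floor on every array, and its part in the results below was not tested. In such bulk RNA, fewer cells of a type and less RNA per cell cannot be told apart.

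DKK1, the secreted protein that blocks WNT signalling by binding LRP5 and LRP6, was the 1 member that differed from NC by 2-fold or more. Its single probe had a deposited intensity of 5959 with NC, 35467 with the mimic, 21929 with siPVT1-1 and 33420 with siPVT1-2. After normalization the log2 levels were 12.51, 15.07, 14.43 and 15.05 in that order. NC was the lowest array by a wide gap, the mimic and siPVT1-2 arrays were nearly level at the top, and siPVT1-1 lay between. All 4 levels were far above the filter level, so none of the ratios rests on a dim spot.

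The fold over NC was 5.9 with the mimic, 3.8 with siPVT1-1 and 5.85 with siPVT1-2. By the same rule 1.95% of all compared genes were higher with the mimic, 1.25% with siPVT1-1 and 1.33% with siPVT1-2. Among the 10666 genes DKK1 was the second highest difference with the mimic and with siPVT1-2 and ranked 7 with siPVT1-1. DKK1 was chosen for this contrast, so these ranks describe it and carry no weight as evidence. For scale, the median absolute log2 difference of all compared genes was 0.28 with the mimic, 0.23 with siPVT1-1 and 0.25 with siPVT1-2, and 95% of genes lay within 0.99, 0.84 and 0.82 of NC in that order.

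**Figure D1:**
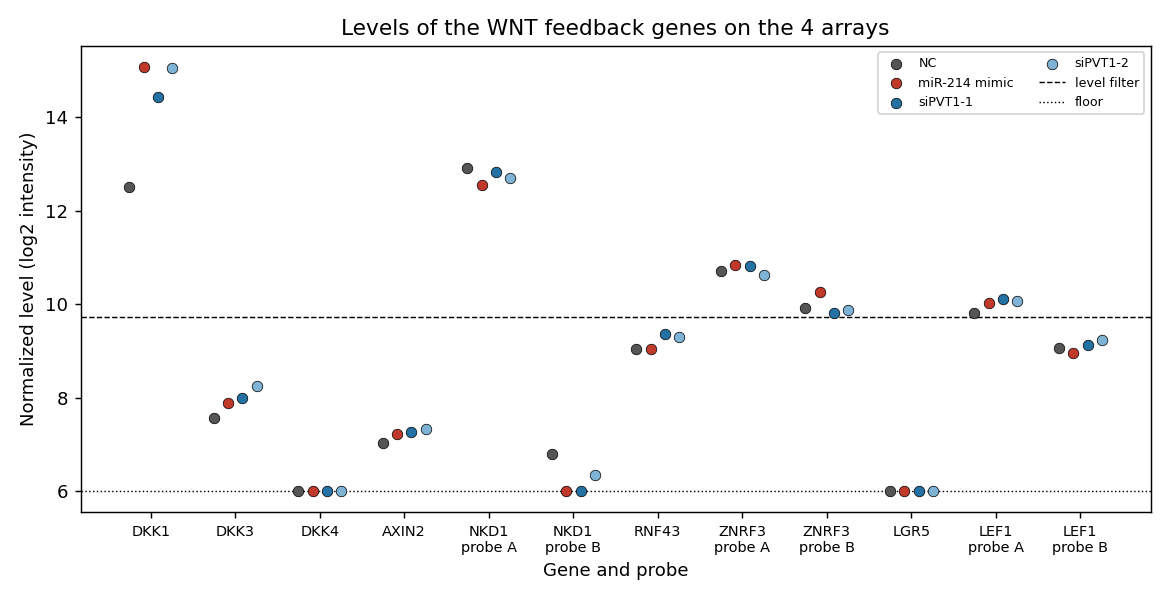
Normalized log2 intensity of each of the 12 probes of the WNT feedback genes on the 4 arrays, 1 point per array, with the level filter as a dashed line and the floor as a dotted line. For genes with 2 probes, A is the brighter. DKK1 stands at 12.51 on the NC array and at 14.43 to 15.07 on the others, while the points of every other probe lie within 0.79 of each other.

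The treated arrays can also be set against each other without the NC array. DKK1 was 0.62 lower on the log2 scale with siPVT1-1 than with siPVT1-2, a difference of -0.62, and 0.63 higher with the mimic than with siPVT1-1. The mimic and siPVT1-2 arrays differed by 0.01. None of these passed 2-fold, a rule that called 0.497% of genes between the siRNAs, 3.02% between the mimic and siPVT1-1, and 1.67% between the mimic and siPVT1-2. Between the siRNAs 95% of all compared genes lay within 0.53, and 293 of 10666 were at least as far apart as DKK1. Between the mimic and siPVT1-1, 1349 genes were at least as far apart as DKK1.

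The start of DKK1 is shown because it was the member that differed. The window runs from 250 bases before to 50 bases after the RefSeq gene start on chromosome 10, chr10:52314031-52314330 of GRCh38.p14, plus strand, and the capitals mark matches to the core of the motif bound by TCF and LEF factors.
DKK1: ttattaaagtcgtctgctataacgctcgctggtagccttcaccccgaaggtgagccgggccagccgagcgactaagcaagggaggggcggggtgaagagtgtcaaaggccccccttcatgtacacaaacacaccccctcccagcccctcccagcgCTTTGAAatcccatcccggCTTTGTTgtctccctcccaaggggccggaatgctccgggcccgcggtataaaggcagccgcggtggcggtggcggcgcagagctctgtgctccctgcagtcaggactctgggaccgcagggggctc

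The letters searched on both strands were CTTTGNN with A or T at each N, forms that cannot overlap one another on the same strand. DKK1 held 2 matches, CTTTGAA with its first base at -95 and CTTTGTT at -76 from the gene start. Of 35116 windows of this length, 13.8% held at least 1 match and 1.58% held at least 2. Windows of 4 members are described, with 6 windows in all, and DKK4 on chromosome 8 was left out. No window was at hand for AXIN2, NKD1, ZNRF3, DKK3 and LGR5, so their starts were not searched. LEF1 (chromosome 4) and both RNF43 windows (chromosome 17) held 0 matches, and 1 of the 2 TCF7 windows (chromosome 5) held 1. A match describes the letters of the window and does not show that a factor binds there.

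The other secreted antagonists of the set did not reach 2-fold from NC. DKK3, a divergent family member, had log2 levels of 7.56 on the NC array, 7.89 with the mimic, 7.99 with siPVT1-1 and 8.26 with siPVT1-2, all under the filter level. NC was the lowest array for DKK3 too, as it was for DKK1, but the differences were 0.33, 0.44 and 0.7. In the deposited intensities, DKK3 stood at 215.7, 228.6, 253.9 and 272.3 in the same order, so the arrays kept this order before normalization with smaller gaps. DKK4, which like DKK1 inhibits LRP co-receptors, lay at the floor on every array, with deposited intensities of 13.6, 6.1, 9.4 and 3.52, and no difference can be read from it. Of the 14 further secreted antagonists listed, such as SFRP, WIF1 and NOTUM family genes, all had a probe and 1 lay above the filter. That gene was FRZB, a decoy that binds WNT proteins, with differences from NC of -0.14 with the mimic, 0.00 with siPVT1-1 and -0.22 with siPVT1-2. Under the filter, SFRP1 stood at 7.65 on the NC array and at the floor with the mimic. Its difference of -1.65 there passed 2-fold but gives no firm size, against -0.05 with siPVT1-1 and -0.5 with siPVT1-2.

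AXIN2, the scaffold of the beta-catenin destruction complex and a widely used WNT target gene, was dim. Its log2 levels were 7.03 on the NC array, 7.22 with the mimic, 7.27 with siPVT1-1 and 7.33 with siPVT1-2. NC was again lowest, by 0.19, 0.24 and 0.3, but the deposited intensities of 152.4, 145.3, 152.5 and 140.9 did not show that order. The direction of the AXIN2 difference from NC with the mimic and siPVT1-2 therefore depended on the normalization.

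NKD1, which binds Dishevelled and dampens WNT signalling inside the cell, had a probe above the filter and a dim one. The brighter gave 12.91 on the NC array, 12.55 with the mimic, 12.82 with siPVT1-1 and 12.7 with siPVT1-2. NC was the highest array here, the reverse of DKK1, with differences of -0.36, -0.1 and -0.21. With each array centred on its median these became -0.22, 0.02 and -0.02, so that siPVT1-1 turned direction and NC was no longer the highest. By the dimmer probe the levels were 6.79, 6.0, 6.0 and 6.35, at the floor on the mimic and siPVT1-1 arrays, so it gives no size.

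RNF43 and ZNRF3, membrane ubiquitin ligases that remove Frizzled receptors from the cell surface, also lay within 2-fold. RNF43, under the filter, had log2 levels of 9.03 on the NC array, 9.04 with the mimic, 9.36 with siPVT1-1 and 9.3 with siPVT1-2. Both siRNA arrays thus stood about 0.3 above the NC and mimic arrays, with differences from NC of 0.32 and 0.27 against 0.01 for the mimic. With values as deposited these were 0.14 and 0.00 for the siRNAs and -0.17 for the mimic, so the gap between NC and siPVT1-2 came only with normalization. ZNRF3, above the filter by both of its probes, gave 10.71, 10.83, 10.8 and 10.62 in the same array order by the brighter probe and 9.92, 10.26, 9.81 and 9.88 by the other. The mimic array was the highest by both probes, with differences from NC of 0.12 and 0.34, while with siPVT1-1 the probes differed in sign, at 0.09 and -0.11, and the brighter gave -0.03 with values as deposited.

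LGR5, a receptor for the R-spondins that restrain these ligases and a known stem cell marker of the pathway, lay at the floor on all 4 arrays, with deposited intensities of 36.9, 36.6, 40.7 and 31.7. Of the other R-spondin genes and receptors, 4 of 6 lay above the filter. With the mimic, LGR4 differed from NC by 0.74 and RSPO3 by 0.83, against -0.21 and 0.06 with siPVT1-1 and 0.14 and 0.49 with siPVT1-2. LGR6 gave -0.09, 0.45 and 0.25. RSPO2 stood close to NC with the mimic (0.04) and gave 0.8 and 0.85 with the siRNAs. None of these 4 passed 2-fold. Under the filter, RSPO4 gave -0.2 with the mimic, -0.06 with siPVT1-1 and -1.09 with siPVT1-2. It was at the floor with siPVT1-2, so the last value gives no firm size.

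LEF1, the transcription factor that pairs with beta-catenin and is itself a WNT target, stood at 9.81 on the NC array, 10.01 with the mimic, 10.11 with siPVT1-1 and 10.07 with siPVT1-2. NC was the lowest array by 0.2, 0.3 and 0.26, but with values as deposited by 0.05, 0.15 and 0.04. A dimmer probe gave -0.1, 0.08 and 0.17, so the probes differed in sign for the mimic.

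Counted together, 1 of the 4 members above the filter was higher on each treated array and 0 were lower. Without DKK1 the remaining members had median log2 differences from NC of 0.12 with the mimic, 0.09 with siPVT1-1 and -0.09 with siPVT1-2, beside -0.02, 0.01 and -0.01 for all compared genes. With no filter, the 8 other members that had a probe ranged from -0.36 to 0.33 with the mimic, from -0.1 to 0.44 with siPVT1-1 and from -0.21 to 0.7 with siPVT1-2, and 0 of them passed 2-fold. Of these 8, DKK4 and LGR5 lay at the floor on every array and could not pass. Of the 7 members off the floor on all arrays, DKK1 included, 1 passed on each treated array. With no filter, that rule called 5.09%, 3.39% and 3.24% of the 17148 genes off the floor on all arrays, in the same order. The single probe of DKK1 had no second probe to set beside it. Over the 2214 genes with 2 probes above the filter, the probes' log2 differences from NC disagreed by a median of 0.33 with the mimic, 0.18 with siPVT1-1 and 0.23 with siPVT1-2, and in 95% of genes by at most 1.06, 0.73 and 0.83. Such disagreement arises within the same arrays and says nothing of the spread between separate samples.

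**Figure D2:**
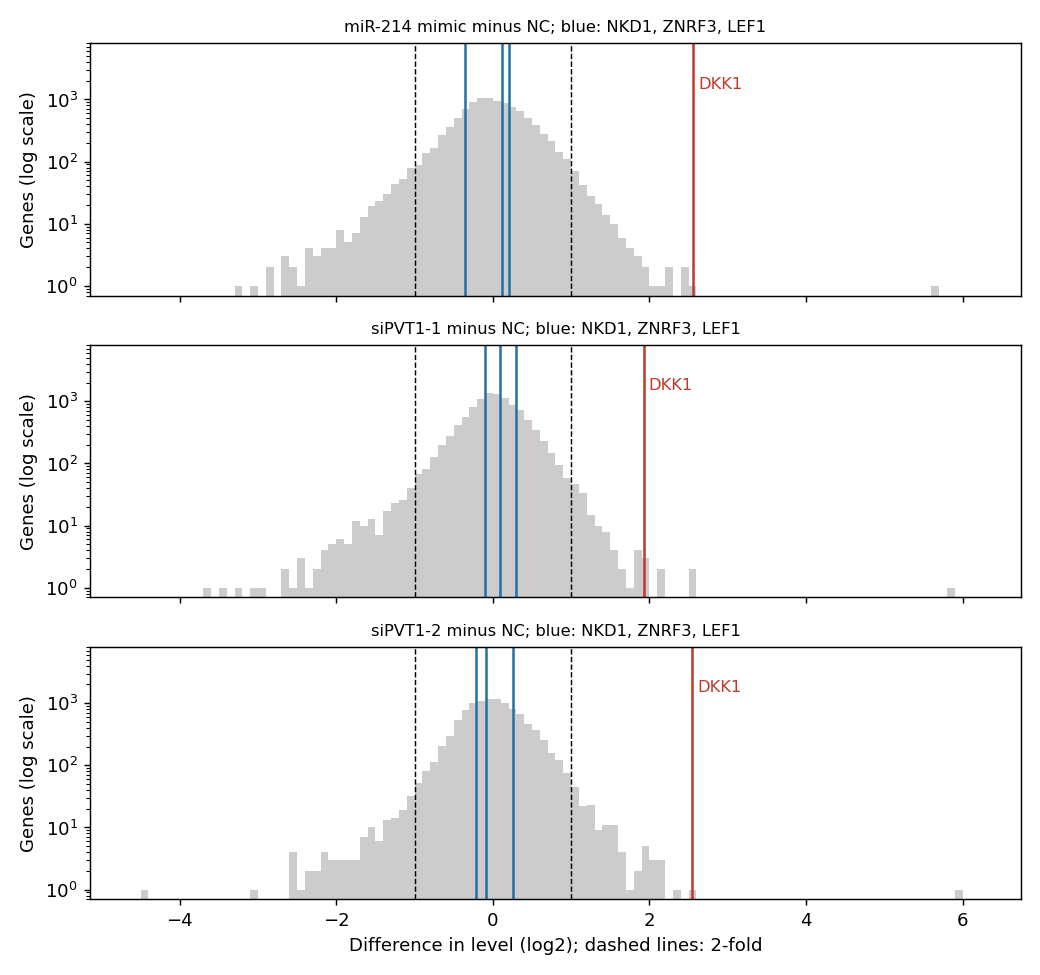
Distribution of log2 differences from NC over the 10666 compared genes, with the number of genes on a log scale, for the mimic, siPVT1-1 and siPVT1-2 arrays. The red line is DKK1 at 2.56, 1.93 and 2.55 and the blue lines are NKD1, ZNRF3 and LEF1, which fall between -0.36 and 0.3; dashed lines mark 2-fold.

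The rest of the pathway was read from a list of 122 genes, of which 120 had a probe and 62 lay above the filter. With the mimic, 0 were higher and 0 lower than NC by 2-fold, beside 4.79% of all compared genes that passed in either direction. With each siRNA, 1 was higher and 1 lower, beside 2.96% of all genes for siPVT1-1 and 2.53% for siPVT1-2. The list's median log2 differences were 0.02, 0.14 and 0.02. The counts were thus near or under the background share on every array.

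Both exceptions were target genes. BMP4, a secreted growth factor, stood at 9.04 on the NC array, 9.76 with the mimic, 10.19 with siPVT1-1 and 10.22 with siPVT1-2, with differences from NC of 0.72, 1.15 and 1.18. Its NC level lay under the filter level, so the size of these differences is uncertain. VEGFA, the angiogenic growth factor, stood at 13.92 on the NC array, 13.54 with the mimic, 12.4 with siPVT1-1 and 12.76 with siPVT1-2. Both siRNA arrays were lower than the NC and mimic arrays, with differences from NC of -1.52 and -1.17 against -0.38. A second VEGFA probe gave -0.03 with the mimic, -0.94 with siPVT1-1 and -0.51 with siPVT1-2, in the same direction but within 2-fold.

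No ligand or receptor gene above the filter was 2-fold from NC. Of 19 WNT ligand genes, 4 lay above the filter. WNT10B was 0.85, 0.7 and 0.61 higher than NC on the log2 scale with the mimic, siPVT1-1 and siPVT1-2, and WNT16 was 0.39, 0.52 and 0.32 higher. WNT5A, a ligand known mostly for signalling without beta-catenin, gave -0.23, -0.71 and -0.31 by its brighter probe. WLS, the carrier that brings WNT proteins to the cell surface, gave -0.2, 0.07 and 0.00 by its brighter probe and -0.31, -0.48 and -0.4 by another above the filter. Of 14 receptor genes 7 were compared, including the partner of DKK1 on the co-receptors, KREMEN1, at -0.13, -0.13 and -0.17. It has 3 further probes under the filter, 1 of which was 2-fold lower with the mimic (-1.02, against 0.16 and 0.14 by the others). FZD6 gave -0.4, -0.57 and -0.27, FZD10 gave -0.16, -0.09 and -0.08, and FZD4 gave -0.36, -0.02 and -0.47. LRP6, a co-receptor to which DKK1 binds, gave -0.13, 0.16 and -0.19, and 0.41, 0.00 and 0.24 by a probe under the filter. LRP5, the other co-receptor, lay under the filter and gave 0.98, 0.1 and 0.41, just within 2-fold with the mimic.

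Genes of the destruction complex and its partners had 14 of 16 members above the filter, with medians of 0.02, 0.14 and 0.02 and none past 2-fold. The kinase genes CSNK1E and CSNK1D stood at -0.13 and -0.06 with the mimic, 0.45 and -0.18 with siPVT1-1, and 0.19 and -0.18 with siPVT1-2, and CSNK1A1 at 0.35, -0.43 and 0.04. Dimmer probes above the filter turned some of these directions, with 0.66, 0.63 and 0.55 for CSNK1E and 0.23, 0.06 and 0.11 for CSNK1D. TNKS, a tankyrase that marks AXIN proteins for breakdown, came nearest to the limit with the mimic at -0.95, against -0.18 and -0.25 with the siRNAs. A TNKS probe under the filter gave -0.22 with the mimic, -0.34 with siPVT1-1 and -0.07 with siPVT1-2. Beta-catenin itself (CTNNB1) stood at 15.45 on the NC array, 14.81 with the mimic, 15.55 with siPVT1-1 and 15.19 with siPVT1-2, with differences of -0.64, 0.1 and -0.26. The mimic array was thus its lowest, while siPVT1-1 lay close to NC. Of the other nuclear effectors, the coactivator CREBBP gave -0.27, 0.00 and -0.16 and the repressor TCF7L1 gave 0.25, 0.55 and 0.38.

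Intracellular antagonists outside the set had 10 of 13 genes above the filter, and none of those 10 passed 2-fold. Under the filter, SOX17 gave -0.92 with the mimic, -0.71 with siPVT1-1 and -1.37 with siPVT1-2, the last past 2-fold at a dim level of 6.54. With the mimic, siPVT1-1 and siPVT1-2, the corepressor CTBP1 gave 0.43, -0.21 and 0.24 and the short Groucho family gene TLE5 gave 0.64, 0.49 and 0.82. The chromatin remodeller CHD8 gave 0.5, 0.55 and 0.34. A CHD8 probe under the filter had the opposite sign on each array, at -0.23, -0.02 and -0.25. Among the other target genes, 15 of 29 were compared. CCND1, the cyclin that drives entry into S phase, gave -0.52, -0.15 and 0.00. BIRC5, an inhibitor of apoptosis active in mitosis, gave 0.52, 0.83 and 0.8. CYP1A2, a drug-metabolising enzyme that WNT signalling maintains near the central vein, gave 0.69, -0.56 and -0.19. It was thus 1.25 higher on the log2 scale with the mimic than with siPVT1-1. In that contrast 2 of the 62 compared list genes were higher by 2-fold and 0 lower, CYP1A2 and VEGFA (1.15). Beside them, 3.02% of all compared genes passed in either direction, so the count was near the background share.

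**Figure D3:**
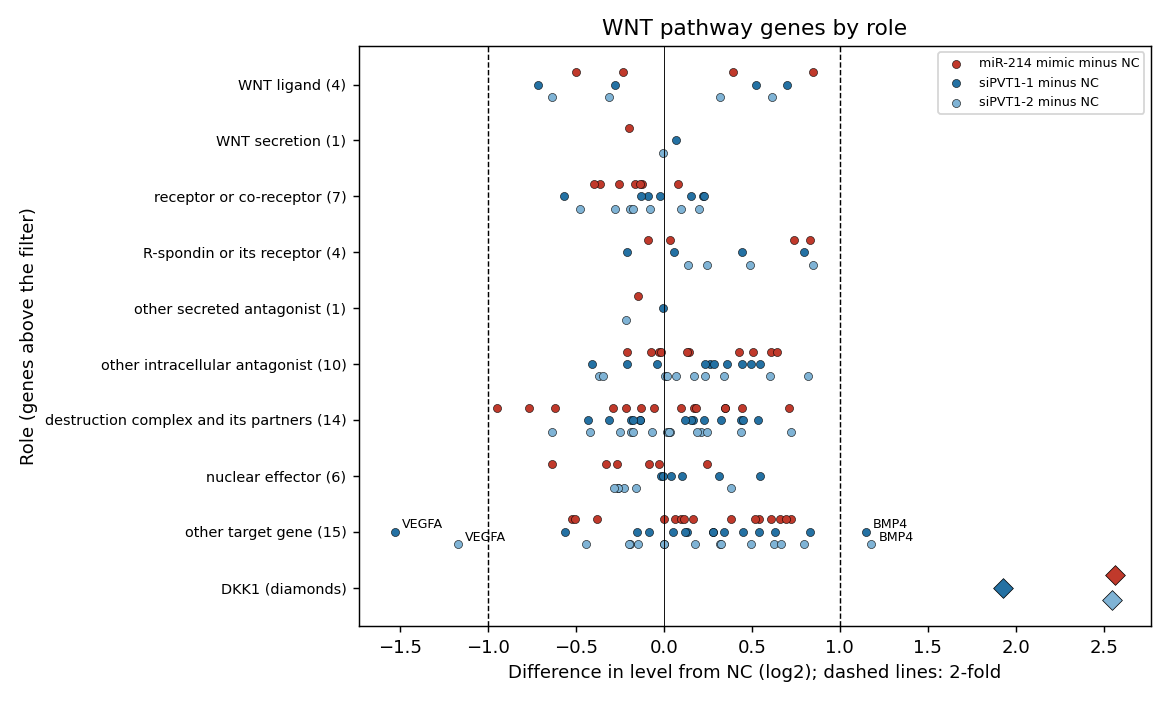
Log2 difference from NC of the 62 compared WNT pathway genes outside the set, by role, with 1 point per gene and array; the diamonds in the last line are DKK1. The dashed lines mark 2-fold, which only BMP4 (1.15 and 1.18) and VEGFA (-1.52 and -1.17) passed, both on the siRNA arrays.

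The genes whose pattern over the 4 arrays lay nearest to that of DKK1 were found by the Euclidean distance between log2 levels centred on each gene's own mean. The nearest 5 of 10665 genes were SPAG4 (0.3), KXD1 (0.55), COXFA4L2 (0.58), CCN1 (0.59) and KRT8 (0.6), where the median distance of all genes was 2.13. A gene with the same level on every array would lie 2.09 from DKK1, so that median mostly reflects how far DKK1 itself moved. None of these 5 genes is on the WNT list used here, which was a chosen list, and whether WNT signalling acts on them was not tested. SPAG4, a nuclear envelope protein gene, had log2 levels of 10.68 on the NC array, 12.96 with the mimic, 12.39 with siPVT1-1 and 12.8 with siPVT1-2. Like DKK1 it was lowest on NC and, of the treated arrays, lowest with siPVT1-1. CCN1, a secreted matrix protein gene, repeated this order, with differences from NC of 1.89, 1.17 and 1.96. KXD1, a gene of the machinery that positions lysosomes, was about level on the treated arrays at 2.22, 2.17 and 2.1. COXFA4L2 gave 1.96, 1.84 and 1.91 and the keratin gene KRT8 gave 2.02, 1.89 and 1.86, both from NC levels under the filter level (8.43 and 8.59). With 4 arrays, 3 of which differ from the same NC array, such likeness describes these arrays only.

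**Figure D4:**
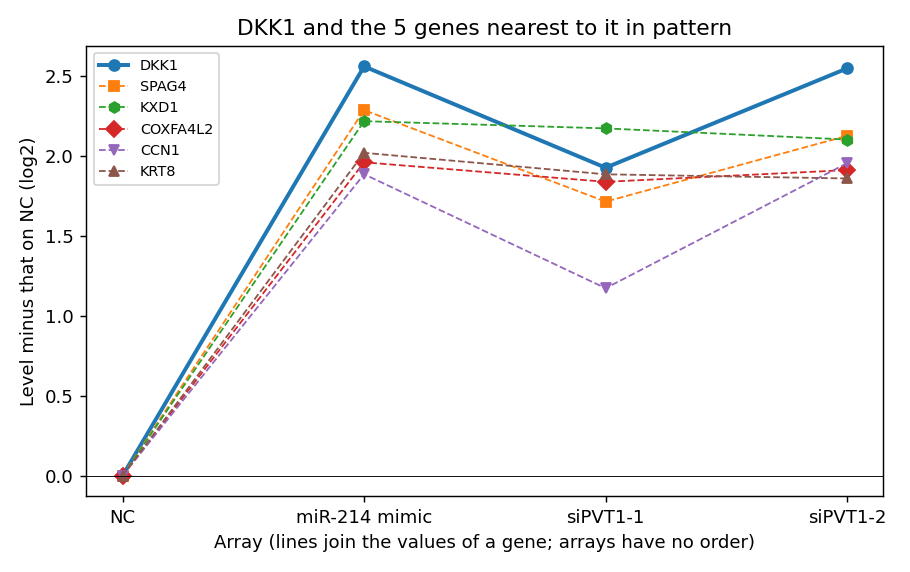
Log2 level minus that on the NC array for DKK1 and the 5 genes nearest to it in pattern, with 1 point per array. DKK1 (2.56, 1.93 and 2.55), SPAG4 (2.29, 1.71 and 2.13) and CCN1 (1.89, 1.17 and 1.96) dip at siPVT1-1, and KXD1, COXFA4L2 and KRT8 are about level on the treated arrays.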

How the data were processed

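Total RNA was amplified, labelled with Cy5 and hybridised in 1 colour, per the labels' protocols. The authors deposited linear intensities, 1 value per probe and array, with background already subtracted, as between 74 and 131 values below 0 on each array show. No source used here names the software. Quantile normalization of these intensities was run in limma 3.58.1 (R 4.3.3), followed by a floor of 64 and the log2 scale. Between 8.14 and 11.7% of the deposited values lay under this floor. Probes were named from the platform annotation, with symbols updated through Entrez identifiers to RefSeq of GRCh38.p14; 25893 of 28264 probes had 1 gene and all of these matched.

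Differences are between single arrays. No test was used, and the number of arrays limits the precision. The calling and pattern steps were run on simulated data with equal shifts planted on all treated arrays. That run checks the code and not the calls made on these arrays. The named genes were all members, pathway genes above the filter chosen by 2 rules, and the 5 genes nearest to DKK1 in pattern. Those rules took the genes 2-fold from NC on a treated array and the 3 brightest per role, or fewer where fewer lay above the filter. TNKS, RSPO2, RSPO4, LRP5, LRP6, KREMEN1, SFRP1, SOX17, GSK3B and ID2 lie outside this rule and were chosen after their values were seen. The members and lists were chosen with earlier results of these data known. The alternatives were other normalizations, floors, filters, probe rules and fold thresholds.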

Additional observations from a re-analysis of the deposited data

How the results depend on the processing

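DKK1 stayed the 1 member past the threshold in each comparison with NC under all 9 alternatives: values as deposited, median centring, cyclic loess, a floor of 16, no filter, a filter at the 75th percentile, averaged probes, and thresholds of 1.5-fold and 3-fold. Its log2 difference ran from 2.51 to 2.74 with the mimic, 1.83 to 2.03 with siPVT1-1 and 2.47 to 2.73 with siPVT1-2. At 1.5-fold, DKK1 also passed between the siRNAs (1 member against 0, beside 3.32% of all genes) and between the mimic and siPVT1-1 (1 against 0, beside 15.6%), and DKK3, under the filter, passed with siPVT1-2 (0.7). Over all members and comparisons, 483 recomputed values kept their side of the threshold and 3 moved past it. Many of the 483 could not move. The filters leave a gene's difference unchanged, averaging leaves a gene with 1 probe unchanged, and DKK4 stayed at the floor under every setting. The count is therefore no measure of robustness. Within 2-fold, small differences of AXIN2, NKD1, RNF43, ZNRF3 and LEF1 from NC changed size or sign with the scaling. Median centring shifted the median of all compared genes from NC to 0.11 with the mimic, 0.11 with siPVT1-1 and 0.16 with siPVT1-2. It turned the split of higher and lower genes from 208 and 303 to 351 and 203 with the mimic, from 133 and 183 to 184 and 146 with siPVT1-1, and from 142 and 128 to 277 and 78 with siPVT1-2. With values as deposited the siRNA splits were 94 and 215 and 95 and 161. No paired analysis was possible because each group held 1 array. No array could be left out within a group, and dim members near the floor remain unresolved.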

Other observations

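Probes of 1 gene did not always move together in this pathway, which limits what a small difference of a single probe shows. GSK3B, the kinase that marks beta-catenin for breakdown, differed from NC by 0.71, 0.54 and 0.72 with the mimic, siPVT1-1 and siPVT1-2 by its brighter probe and by -0.34, -0.03 and -0.01 by the other, both above the filter. WNT5A gave -0.23, -0.71 and -0.31 by the brighter probe and 0.71, -0.53 and 0.24 by the other, with the same sign only for siPVT1-1. ID2, a target gene that restrains differentiation factors, gave -0.5, 0.28 and -0.44 by its brightest probe and 0.15, 0.58 and 0.27 by the next. BIRC5 was the reverse case, with its 3 probes above NC on every treated array, at 0.52, 0.59 and 0.25 with the mimic, 0.83, 0.75 and 0.79 with siPVT1-1, and 0.8, 0.61 and 0.96 with siPVT1-2. Over all 2214 genes with 2 probes above the filter, the probes shared their sign in 61.2% with the mimic, 70.0% with siPVT1-1 and 66.5% with siPVT1-2.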
